A study of Homo sapiens with 15 samples.

Results

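Thapsigargin, an inhibitor of the SERCA calcium pumps that fill the endoplasmic reticulum (ER) with calcium, was compared here directly with PS19 brain lysate, an extract that seeds tau aggregation. The comparison took 10 of the 15 libraries of the series, 5 from Biosensor cells labelled as treated with 0.3 µM thapsigargin and 5 from Biosensor cells labelled as given PS19 brain lysate. Values were joined by gene ID, and the 5 control lysate libraries entered no main test, though 1 alternative fitted all 15 libraries. Of 18338 genes in the files, 11712 had a mean of at least 1 FPKM (fragment counts scaled to transcript length and library depth) over the 10 libraries and were tested.

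Biosensor cells are a HEK293 line, derived from human embryonic kidney, that stably expresses a fusion of a tau repeat domain carrying P301S to yellow fluorescent protein, a construct present in all groups. PS19 mice, on a C57BL/6J background, carry a human tau transgene with P301S driven by the mouse prion promoter. Soluble brain protein of adult male animals was the material transfected. The sources used here state neither how long thapsigargin was applied nor whether those cells also received lysate or transfection reagent. Effects of the drug and of the lysate therefore cannot be told apart in a direct comparison of the groups. Libraries are described as independent experimental replicates with no separate cultures named, so the p-values rest on library-to-library spread alone, and part of it may be technical.

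As background, unfolded protein in the ER lumen activates 3 membrane sensors. PERK (EIF2AK3) phosphorylates eIF2α, slows translation and raises ATF4, which switches on CHOP (DDIT3) and genes for amino acid supply. IRE1 (ERN1) splices XBP1 mRNA and cuts other ER-bound mRNAs, and ATF6 is released by proteases in the Golgi to act on genes for ER chaperones. Emptying ER calcium with thapsigargin is a standard way to start all these branches, whereas tau aggregates form in the cytosol, where HSP70 and HSP90 family chaperones act.

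Promoter matches to the letters that these factors read are shown first, because several lie before the genes on which the results turn. The ER stress response element (ERSE), through which ATF6 acts together with NF-Y, was searched as CCAAT and CCACG with 9 bases between them on both strands of RefSeq promoter windows (GRCh38.p14, 250 bases before to 50 bases after each start). Windows matched 9638 of the 11712 genes tested (82.3%). The letters occurred in 22 of all 27305 windows (0.0806%) and in 14 genes tested, at 13 distinct sites, since CRELD2 shared a site with ALG12 and SERP1 with EIF2A, and HSP90B1 held 2. The matches are given 5′ to 3′ along the matched strand, with the fixed letters in capitals, in order of the difference between groups from the highest to the lowest gene.
HSPA5: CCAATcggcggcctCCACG
CRELD2 and ALG12, 1 shared site: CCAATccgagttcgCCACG
FICD: CCAATgggagtggcCCACG
HSP90B1, site farther from the start: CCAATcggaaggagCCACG
HSP90B1, site nearer to the start: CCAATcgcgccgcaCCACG
CALR: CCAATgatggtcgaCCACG
ERO1B: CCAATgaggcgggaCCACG
XBP1: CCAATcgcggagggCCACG
SERP1 and EIF2A, 1 shared site: CCAATtcgctgtctCCACG
TRIM5: CCAATggcatttctCCACG
CANX: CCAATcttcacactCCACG
TMEM120A: CCAATggggaaaggCCACG
ZNF17: CCAATgaagcccctCCACG

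Of these 14 genes, 13 were called higher in the thapsigargin libraries and 1, ZNF17, lower, with a median log2 difference of 1.28. ZNF17 lost its call with quantile normalization and with the length and GC correction. CANX, called higher, lost its call with quantile normalization and after rescaling each library to one sum. Among all genes with a window, 25.9% were called higher and 41.8% lower, with a median of −0.107. A match describes the letters and says nothing of binding. A shorter form, ERSE-II, searched as ATTGG and CCACG with 1 base between them, matched 11 genes tested, of which 6 were called higher and 3 lower. Its first 3 by difference were HERPUD1 (ATTGGgCCACG), SDF2L1 (ATTGGtCCACG) and HYOU1, which held 2 copies of ATTGGaCCACG. TGACGTGG, the element read by XBP1 and ATF6, matched 94 genes (43 higher, 27 lower) and overlapped an ERSE-II match in 1 gene. The composite CHOP and ATF4 letters TGATGNAAT matched 40 genes, of which 11 were higher and 21 lower, and none of the 16 members of the ATF4 and CHOP list with a window. The heat shock element, searched as GAA, TTC and GAA with 2 bases between neighbours, matched 25 genes (7 higher, 11 lower). Their median of −0.102 was near the −0.107 of all genes with a window, so as a set they did not stand apart. Among them were HSPA8 and DNAJA1, both called lower, and CHORDC1, which held 3 matches and was not called (−0.07).

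**Figure D1:**
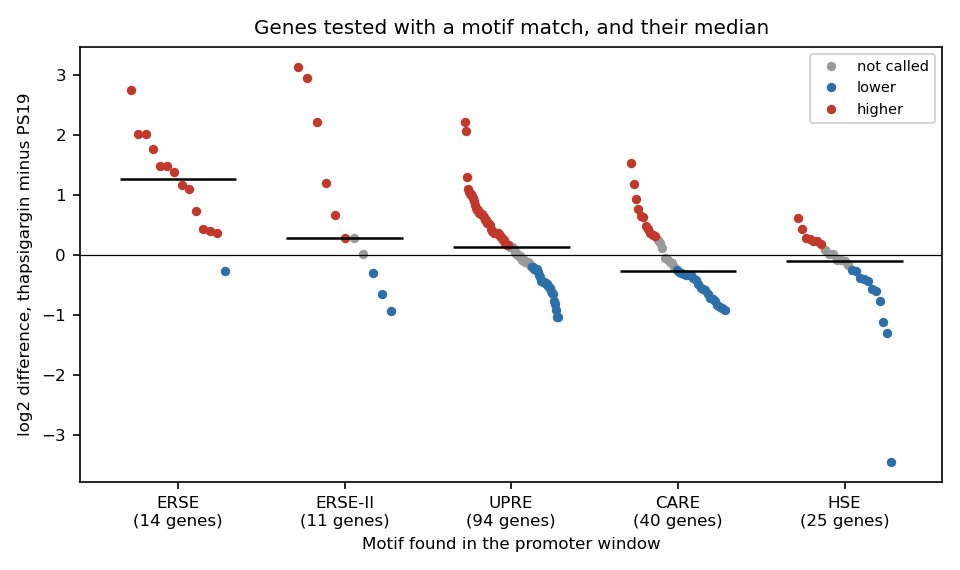
Log2 difference (thapsigargin minus PS19, log2(FPKM + 0.5) scale) of each gene tested whose promoter window held a motif, by motif (UPRE is TGACGTGG, CARE is TGATGNAAT, HSE is the heat shock element); points are genes and the black bar is their median. Of the ERSE genes 13 of 14 lie above 0, while the other motifs hold genes on both sides, and HSPA8 is the lowest point of the heat shock element at −3.45.

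Whole upstream stretches are printed for 4 genes on which the results turn, HSPA5 and XBP1 for the ERSE, HERPUD1 for ERSE-II and HSPA8 for the heat shock element. Each is the 250 bases before the start, 5′ to 3′ on the gene's strand, with the matched letters in capitals. HSPA5 lies on the minus strand at chr9:125241344-125241593, XBP1 on the minus strand at chr22:28800570-28800819, HERPUD1 on the plus strand at chr16:56931892-56932141 and HSPA8 on the minus strand at chr11:123062137-123062386 (GRCh38.p14).
HSPA5: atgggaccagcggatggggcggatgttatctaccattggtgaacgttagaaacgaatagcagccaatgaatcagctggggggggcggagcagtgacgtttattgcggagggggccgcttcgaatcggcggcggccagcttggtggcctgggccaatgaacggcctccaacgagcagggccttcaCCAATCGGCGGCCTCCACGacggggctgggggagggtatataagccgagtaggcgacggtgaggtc
XBP1: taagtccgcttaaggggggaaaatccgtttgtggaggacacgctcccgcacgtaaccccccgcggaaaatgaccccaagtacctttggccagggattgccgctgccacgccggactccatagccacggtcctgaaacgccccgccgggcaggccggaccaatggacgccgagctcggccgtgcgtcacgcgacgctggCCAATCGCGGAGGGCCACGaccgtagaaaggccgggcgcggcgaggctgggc
HERPUD1: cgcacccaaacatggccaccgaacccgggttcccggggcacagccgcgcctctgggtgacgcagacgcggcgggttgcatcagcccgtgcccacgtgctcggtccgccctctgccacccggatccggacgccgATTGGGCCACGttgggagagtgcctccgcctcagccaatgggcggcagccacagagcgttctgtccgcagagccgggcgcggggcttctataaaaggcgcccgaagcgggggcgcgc
HSPA8: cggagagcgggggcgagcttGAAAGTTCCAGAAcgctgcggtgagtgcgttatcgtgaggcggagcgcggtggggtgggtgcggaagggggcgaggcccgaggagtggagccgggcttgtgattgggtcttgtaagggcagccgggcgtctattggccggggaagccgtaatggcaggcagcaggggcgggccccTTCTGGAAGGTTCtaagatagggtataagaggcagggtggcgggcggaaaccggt

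Of the 11712 genes, 7963 (68.0%) passed an adjusted p of 0.1 (limma, Benjamini-Hochberg), 3055 (26.1%) higher and 4908 (41.9%) lower in the thapsigargin libraries. At least 2-fold, 215 genes were higher (1.84%) and 273 lower (2.33%), and at least 4-fold, 30 were higher and 3 lower. Folds were taken after adding 0.5 to each FPKM value and so come out too small for weakly expressed genes. The groups did not overlap at all for 1848 genes above (15.8%) and 3185 below (27.2%). The split by direction depended on scaling, 3055 to 4908 with the deposited values, 3947 (33.7%) to 3942 (33.7%) with median-ratio scaling and 3675 (31.4%) to 4134 (35.3%) with quantile normalization. It was 2185 (18.7%) to 6058 (51.7%) after rescaling each library to one sum (TPM), and 3826 (33.1%) to 4141 (35.9%) after a correction for transcript length and GC content, which was added after the data were seen. The median over all genes moved from −0.11 to −0.24 with TPM and to within 0.02 of 0 with the others. Under all 5 of these, 1905 genes (16.3%) were higher and 2983 (25.5%) lower.

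**Figure D2:**
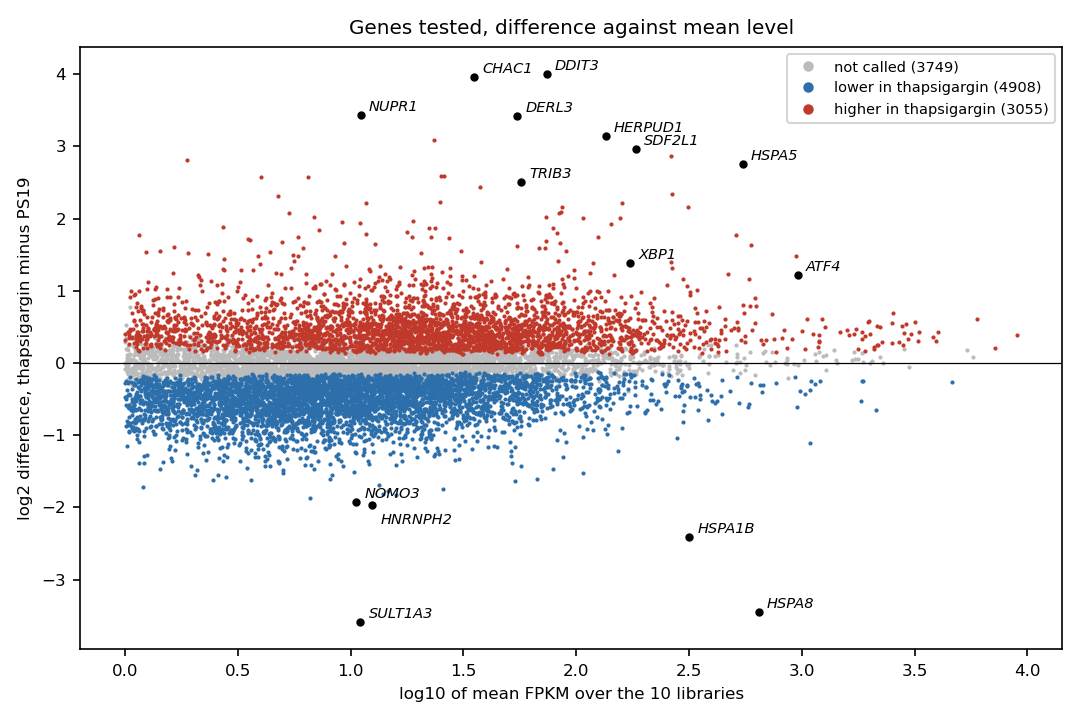
Log2 difference (thapsigargin minus PS19) against the log10 of the mean FPKM over the 10 libraries for the genes tested, coloured by call, with named genes marked. The largest positive differences, DDIT3 at 4.0 and CHAC1 at 3.96, exceed those in the other direction, where only SULT1A3, HSPA8 and HSPA1B pass −2.

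The thapsigargin libraries varied more than the PS19 libraries, with a larger SD of log2 values for 88.0% of genes (median SD 0.203 against 0.089). Thapsigargin library 2 stood farthest from the PS19 mean, with 545 genes at least 2-fold above and 1359 below it, and library 3 was nearest, with 192 above and 68 below. Their correlations with PS19 libraries were 0.932 to 0.943 and 0.973 to 0.980. Transcript length moved with the difference. From the shortest to the longest of 5 equal bins of transcripts the median log2 difference went from 0.20 to −0.35, from 0.31 to −0.51 in library 2 and from 0.06 to −0.14 in library 3. From the lowest to the highest of 5 bins of GC content it went from −0.23 to 0.16 over all libraries, from −0.52 to 0.34 in library 2 and from 0.08 to −0.09 in library 3. The part that either property played in the calls was not tested beyond the correction above. Without libraries 2 and 3 together, 3270 genes were higher and 5155 lower. Summed FPKM was 551499 to 637687 in the thapsigargin and 523601 to 547043 in the PS19 libraries (exact permutation test, two-sided, p = 0.00794, the smallest that 5 against 5 can give rounded). The files do not give the read depth reached by each library, and in bulk RNA fewer expressing cells cannot be told apart from less RNA per cell.

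**Figure D3:**
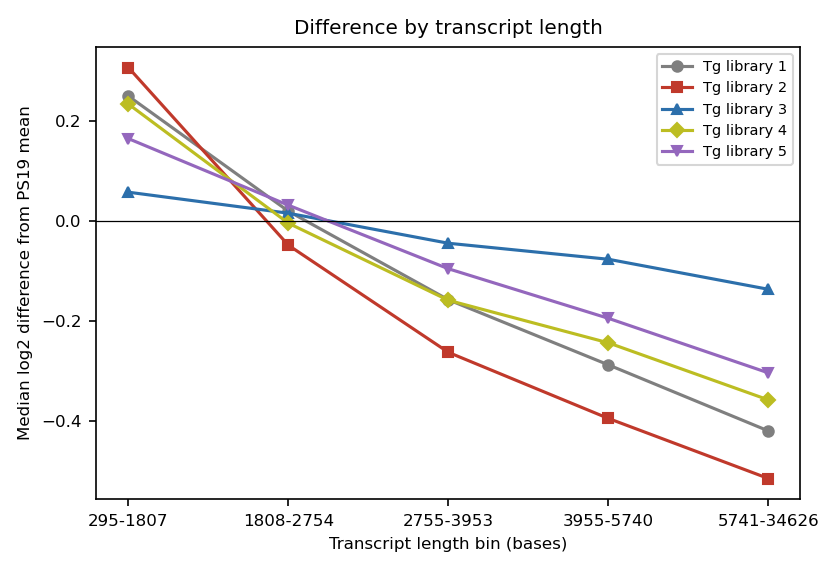
Median log2 difference of each thapsigargin library from the PS19 mean (y axis) by bin of transcript length (5 bins of equal gene number) in bases (x axis), 1 line per library. Library 2 spans the widest range, 0.31 to −0.51, and library 3 the narrowest, 0.06 to −0.14.

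DDIT3, the transcription factor CHOP, had the largest difference of all genes whose libraries did not overlap. Its values were 140, 165, 120, 143 and 130 FPKM in thapsigargin libraries 1 to 5 and 6.68, 8.71, 8.75, 7.64 and 9.61 FPKM in PS19 libraries 1 to 5. Every thapsigargin library lay far above every PS19 library. The log2 difference was 4.0 ± 0.11 (SE, n = 5 per group, limma adjusted p = 1.18e-10), a 16.0-fold difference. TRIB3, a pseudokinase that CHOP and ATF4 induce, varied little within either group, at 102, 99.1, 93.4, 96.0 and 97.4 FPKM against 15.6, 16.1, 17.8, 16.8 and 17.5 FPKM. Its log2 difference was 2.51 ± 0.06 (adjusted p = 1.16e-10). CHAC1, a glutathione-degrading enzyme downstream of ATF4, was at 70.8, 86.4, 51.4, 76.5 and 49.9 FPKM against 2.93, 3.8, 3.76, 3.92 and 4.5 FPKM. Libraries 3 and 5 were its lowest thapsigargin values, and the groups were still far apart (log2 difference 3.96 ± 0.15, adjusted p = 1.99e-09).

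ATF4 itself, whose protein is controlled mainly through translation, was higher at the RNA level by a smaller step. It was at 1377, 1618, 1094, 1416 and 1222 FPKM in the thapsigargin libraries and 577, 595, 567, 541 and 586 FPKM in the PS19 libraries (log2 difference 1.22 ± 0.10, adjusted p = 1.3e-06). NUPR1, a stress-induced chromatin protein, was at 19.9, 29.5, 12.8, 21.6 and 19.8 FPKM against 1.69, 1.18, 2.0, 0.80 and 1.53 FPKM, low in the PS19 libraries relative to the added 0.5, so its log2 difference of 3.44 is a low estimate. Of the 20 genes of the ATF4 and CHOP network list 18 were tested, and 15 were higher and none lower beside 26.1% and 41.9% of all genes. The list median was 1.37 against −0.11 for all genes. CEBPB (log2 difference 2.43), ATF3 (1.74), JDP2 (1.66), SESN2 (1.59), STC2 (1.40) and CEBPG (1.34) were among those higher. TNFRSF10B (0.04, adjusted p = 0.693), KLHL24 (−0.12, adjusted p = 0.352) and ATF5 (−0.15, adjusted p = 0.232) did not pass.

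The list of 31 PERK-regulated genes that the study used was higher in full, 31 of 31, beside 26.1% of all genes. Its median was 1.31, against −0.11 for all genes. DDIT4 (0.50) and NFIL3 (0.52) were among its lowest members. The list shares DDIT3, NUPR1, HERPUD1, XBP1 and other genes with the study's IRE1 list. The study drew its PERK, IRE1 and ATF6 lists from earlier work and checked or chose them by their response to thapsigargin in these cells, so the direction of those 3 lists is not independent evidence. The study's ERAD list came from Gene Ontology. The mean of the PERK list over its genes was nearly the same in every thapsigargin library, at 1.44, 1.41, 1.46, 1.43 and 1.51 log2 units above the PS19 mean for libraries 1 to 5. The ATF4 and CHOP list behaved alike, at 1.55, 1.55, 1.47, 1.47 and 1.56. It shares DDIT3, TRIB3, CEBPB, NUPR1 and other genes with the PERK list, so the lists are not independent. Libraries 2 and 3, which differed most over all genes, were thus within 0.10 log2 units of each other on both lists.

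The genes of the sensors themselves gave smaller values. EIF2AK3, which encodes PERK, was at 4.55, 3.21, 8.97, 4.93 and 7.97 FPKM in the thapsigargin libraries and 3.65, 3.83, 4.54, 4.31 and 3.97 FPKM in the PS19 libraries. Library 2 lay below all PS19 libraries and libraries 3 and 5 far above them, and the difference did not pass (log2 0.41 ± 0.21, adjusted p = 0.107, and 0.00134 to 0.309 over the alternatives). Without library 2 it was 0.59 (limma adjusted p = 0.00821), and with the length and GC correction 0.71 (adjusted p = 0.00134). Other settings under which it passed included median-ratio scaling (0.51, limma adjusted p = 0.0353), quantile normalization (0.63, adjusted p = 0.00672) and array weights (0.31, adjusted p = 0.0409). It did not pass with TPM (0.30, limma adjusted p = 0.309) or without any 1 PS19 library. ERN1, which encodes IRE1α, was at 1.22, 1.11, 1.73, 1.49 and 1.67 FPKM against 0.92, 0.91, 1.14, 1.00 and 0.95 FPKM. It passed by a small step with groups that overlapped in library 2 (log2 0.38 ± 0.11, adjusted p = 0.00781). ATF6 was at 8.30, 5.73, 15.3, 8.57 and 16.6 FPKM against 12.5, 11.5, 15.4, 13.5 and 13.3 FPKM. Its libraries spread on both sides of the PS19 range, and the difference did not pass (−0.37 ± 0.23, adjusted p = 0.187). With the length and GC correction it was 0.00 (limma adjusted p = 0.995). It passed with array weights (−0.48, limma adjusted p = 0.00769) and with the replicate block (adjusted p = 0.0836). Without library 5 it was −0.54 (limma adjusted p = 0.0399) and without library 3 −0.51 (adjusted p = 0.0498).

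In the list of 14 sensor and eIF2α kinase genes 4 were higher (28.6%) and 5 lower (35.7%), near the 26.1% and 41.9% of all genes, with a median 0.01 above that of all genes. With the length and GC correction 6 were higher and 2 lower, beside 33.1% and 35.9% of all genes. XBP1, the target of IRE1 splicing, was at 252.2, 201, 300.3, 246 and 261 FPKM against 96.3, 98.8, 92.8, 93.1 and 96.5 FPKM (log2 difference 1.38 ± 0.09, adjusted p = 2.55e-07). Spliced and unspliced XBP1 were not separated in these values. PPP1R15A (GADD34), which directs dephosphorylation of eIF2α, was higher by 1.56 ± 0.10 (adjusted p = 2.27e-07). MBTPS2, the second of the proteases that release ATF6, was lower, at 2.77, 1.98, 5.69, 2.73 and 5.16 FPKM against 7.42, 6.55, 8.12, 9.39 and 7.45 FPKM (log2 difference −1.07 ± 0.22, adjusted p = 0.00137). EIF2AK4 (GCN2), the kinase that senses uncharged tRNA, was lower by a log2 difference of −0.45, which with the length and GC correction became −0.11 (limma adjusted p = 0.348).

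ATP2A2, which encodes the widely expressed SERCA pump and so the direct target of the drug, was at 40.4, 28.3, 60.4, 43.8 and 52.9 FPKM against 35.1, 35.8, 44.5, 44.8 and 39.8 FPKM. The groups overlapped (log2 difference 0.13 ± 0.17, adjusted p = 0.497), though without library 2 the value was 0.29 (limma adjusted p = 0.0483) and with the length and GC correction 0.51 (adjusted p = 0.00385). In the list of calcium store genes 4 of 21 were higher (19%) and 11 lower (52.4%), near the 26.1% and 41.9% of all genes, with a median of −0.30. With the length and GC correction 7 were higher and 7 lower, beside 33.1% and 35.9% of all genes. CALR, a calcium-storing chaperone of the ER lumen, was the strongest of these, at 1365, 1437, 1291, 1435 and 1385 FPKM against 493, 482, 491, 507 and 486 FPKM (1.49 ± 0.06, adjusted p = 3.24e-09). SDF4 (0.55) and RCN1 (0.44), calcium-binding proteins of the secretory pathway, were higher too. Of their relatives RCN2 (−0.64, adjusted p = 0.0296) was lower, though not with the length and GC correction (−0.30, adjusted p = 0.132), and CALU (−0.05, adjusted p = 0.801) did not pass. The other SERCA genes, both weakly expressed, went opposite ways. ATP2A1 was higher (0.38, adjusted p = 0.0162), with groups that overlapped, and ATP2A3 was lower (−0.64, adjusted p = 9.05e-05). STIM1, the sensor of ER calcium at the store, was lower (−0.38).

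HSPA5 (BiP), the main HSP70 of the ER lumen, was at 894, 722, 1171, 793 and 1187 FPKM in the thapsigargin libraries and 127, 132, 148, 142 and 143 FPKM in the PS19 libraries. Libraries 3 and 5 were the highest and library 2 the lowest, the reverse of their order for CHAC1 (log2 difference of HSPA5 2.75 ± 0.13, adjusted p = 1.32e-08). SDF2L1, a BiP cofactor, was at 339, 410, 256, 307 and 321 FPKM against 36.8, 39.8, 41.1, 41.1 and 46.8 FPKM (2.96 ± 0.11, adjusted p = 1.88e-09). DNAJB11, an ER J-protein, was at 139, 157, 130, 138 and 131 FPKM against 32.8, 32.8, 30.4, 31.9 and 33.5 FPKM (2.09 ± 0.07, adjusted p = 5.92e-10). CRELD2, an ER-resident stress protein, was at 122, 127, 108, 106 and 129 FPKM against 27.0, 28.3, 28.9, 28.3 and 30.6 FPKM (2.03 ± 0.07, adjusted p = 1.62e-09). In all 4 genes every thapsigargin library lay above every PS19 library.

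Of 33 ER chaperones and folding enzymes, all of them tested, 28 were higher (84.8%) and 2 lower, beside 26.1% and 41.9% of all genes, with a median log2 difference of 0.98. PDIA4 (2.34), HYOU1 (2.22), MANF (2.17), FKBP2 (1.93) and HSP90B1 (1.78) followed the genes above. FICD, which modifies BiP and was not in this list, was higher by 2.02. Those lower were SDF2 (−0.31, adjusted p = 0.0062, and 0.201 with quantile normalization) and PRDX4 (−0.50, adjusted p = 0.0209). HSPA13, ERO1A and FKBP11 did not pass, at 0.53, 0.19 and 0.07. The study's list of ATF6-regulated genes had 63 of 73 tested members higher and 1 lower, with a median of 0.66. Its lower member, HMOX1 (−0.21), did not pass with median-ratio scaling (limma adjusted p = 0.471). CDK2AP2, a cell cycle kinase inhibitor in that list, stood among the chaperones at 478, 609, 331, 504 and 388 FPKM against 66.8, 62.1, 54.5, 61.3 and 62.3 FPKM (2.87 ± 0.14, adjusted p = 1.32e-08).

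**Figure D4:**
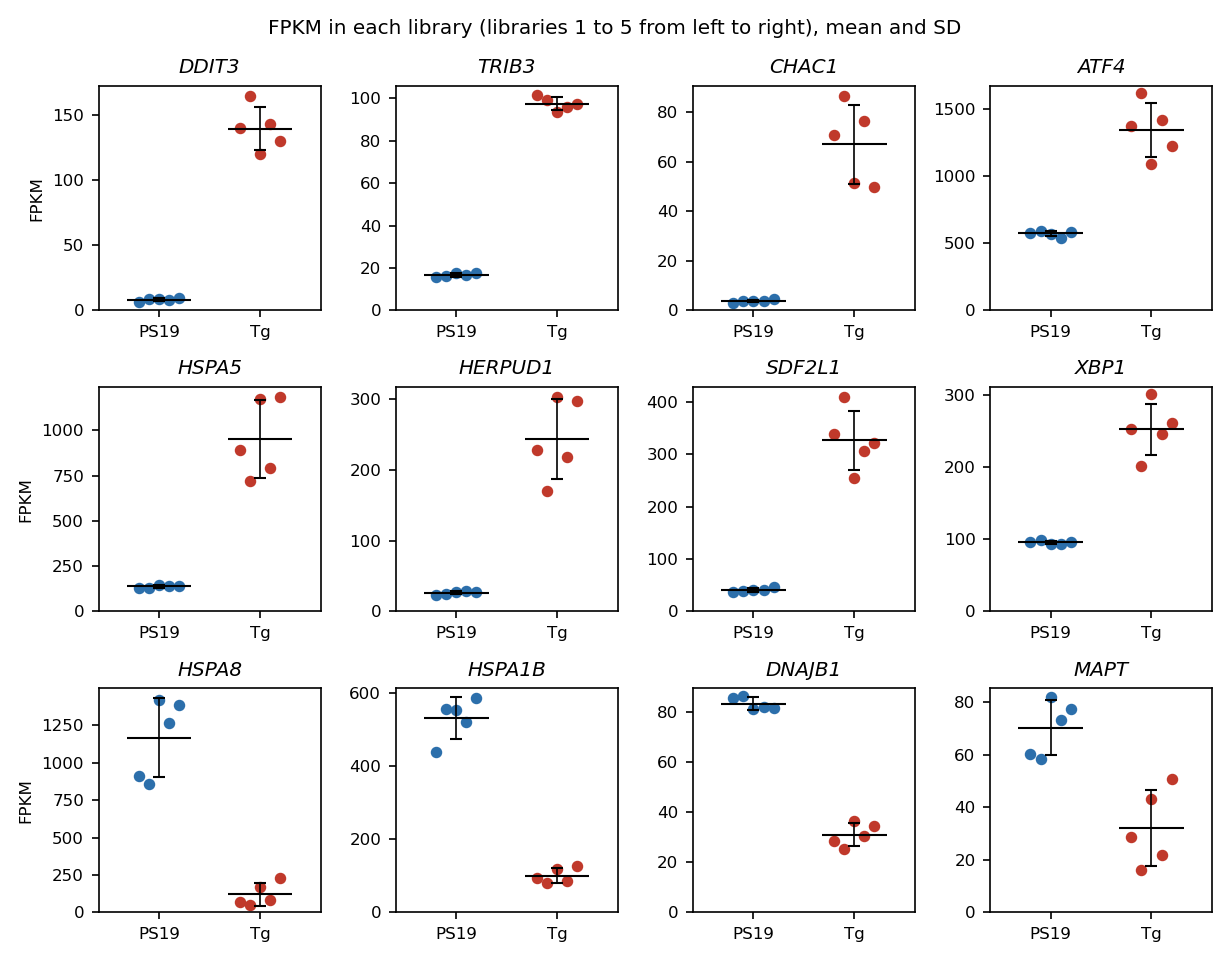
FPKM of 12 genes in the 5 PS19 libraries (blue) and the 5 thapsigargin libraries (Tg, red), libraries 1 to 5 from left to right, with the mean and SD in black; each y axis starts at 0. The upper 8 genes are higher and the lower 4 are lower in every thapsigargin library, DDIT3 at 120 to 165 against 6.68 to 9.61 FPKM and HSPA8 at 52.4 to 231 against 858 to 1417 FPKM.

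ER-associated degradation (ERAD) genes carry misfolded protein out of the ER to the proteasome. HERPUD1, a scaffold of the degradation complex, was at 229, 170, 303, 218 and 297 FPKM against 23.8, 24.3, 27.4, 29.4 and 28.02 FPKM (log2 difference 3.14 ± 0.14, adjusted p = 7.99e-09). DERL3, a channel component, was at 119, 106, 83.5, 92.9 and 99.2 FPKM against 8.09, 9.09, 7.88, 9.93 and 9.52 FPKM (3.42 ± 0.10, adjusted p = 2.96e-10). SYVN1 (HRD1), the ubiquitin ligase of the complex, was at 160, 146, 129, 145 and 128 FPKM against 32.5, 30.9, 30.2, 32.5 and 29.1 FPKM (2.17 ± 0.08, adjusted p = 9.1e-10). In the list of 24 ERAD genes 15 were higher (62.5%) and 4 lower, beside 26.1% and 41.9% of all genes (median 0.49). The members acting in the membrane or lumen, SELENOS (1.62), DERL2 (1.28), SEL1L (1.09) and EDEM2 (1.08), were among those higher. The cytosolic extraction factor VCP (0.02, adjusted p = 0.865) and the membrane protein FAF2 (−0.00, adjusted p = 0.994) did not pass, and NPLOC4 (−0.53, adjusted p = 3.9e-05) was lower. The study's ERAD list, which is wider, had 39 of 69 tested members higher and 2 lower, with a median of 0.21, and 27 higher and 9 lower with TPM scaling, where 18.7% and 51.7% of all genes were.

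Genes that bring proteins into the ER and add N-glycans were also higher in part, 19 of 29 (65.5%) with 2 lower, beside 26.1% and 41.9% of all genes (median 0.54). SSR2 of the translocon-associated complex was at 667, 627, 601, 728 and 686 FPKM against 291, 280, 263, 275 and 297 FPKM (1.23 ± 0.07, adjusted p = 6.46e-08). SEC61A1, the translocation channel, was higher by 1.22, and SRPRA and SRPRB, the receptor of the signal recognition particle, by 1.10 and 0.94. DAD1 (−0.51) was lower, and SPCS1 (−0.29, adjusted p = 0.053) passed here but not with the length and GC correction (−0.05, adjusted p = 0.497). Of 30 vesicle coat and cargo genes of COPI and COPII 15 were higher and 6 lower, beside 26.1% and 41.9% of all genes, with a median of 0.21. With TPM scaling 9 were higher and 8 lower, beside 18.7% and 51.7% of all genes. The list mean ranged from −0.11 in library 2 to 0.53 in library 3. With the length and GC correction 18 were higher and 3 lower, beside 33.1% and 35.9% of all genes. Within the COPII coat SEC31A (1.06) and SEC13 (0.69) were higher, while all 6 lower members of the list act in COPII too. SEC24D (1.52) and SEC23A (−1.04), singled out after their values were seen, went opposite ways. The other SEC24 genes of the list were lower. SEC24D was at 23.8, 14.6, 49.1, 26.0 and 43.6 FPKM against 9.54, 9.22, 9.75, 10.3 and 9.64 FPKM, and SEC23A at 10.9, 7.07, 25.3, 11.8 and 18.7 FPKM against 26.1, 28, 32.4, 28.8 and 25.7 FPKM. GOLGA2, a Golgi matrix protein (1.05), and COPG1 of the COPI coat (0.86) were higher.

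Of 22 tested genes of amino acid synthesis and transport 20 were higher (90.9%) and none lower, beside 26.1% and 41.9% of all genes, with a median of 0.96. SLC6A9, a glycine transporter, was at 47.3, 46.3, 39.5, 46.5 and 37.7 FPKM against 6.28, 7.02, 6.84, 6.71 and 6.87 FPKM (2.60 ± 0.08, adjusted p = 4.62e-10). ASNS, asparagine synthetase, was at 182, 201, 182, 208 and 187 FPKM against 59.4, 60.9, 54.5, 54.2 and 55.9 FPKM (1.74 ± 0.07, adjusted p = 1.99e-09). CTH of cysteine synthesis (2.23) and SLC1A4, a neutral amino acid transporter (2.22), were higher in every library as well. SLC38A1 (0.19) and ALDH18A1 (0.10) did not pass. Of the 20 cytosolic aminoacyl-tRNA synthetases 16 were higher and 2 lower, beside the same shares of all genes (median 0.50). Those of smallest p were CARS (1.00), GARS (0.98), NARS (0.84) and YARS (0.70), while QARS (−0.24) and RARS (−0.47) were lower, QARS not with median-ratio scaling (limma adjusted p = 0.121). IARS and LARS did not pass, at −0.02 and 0.13.

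Cytosolic heat shock genes went the other way. HSPA8 (HSC70), the constitutive HSP70 of the cytosol that also acts on tau, was at 68.4, 52.4, 170, 84.8 and 231 FPKM in the thapsigargin libraries and 911, 858, 1417, 1262 and 1383 FPKM in the PS19 libraries. Libraries 3 and 5 were the highest thapsigargin values and PS19 libraries 1 and 2 the lowest of theirs, and the groups were far apart. The log2 difference was −3.45 ± 0.35 (adjusted p = 9.11e-06), an 11-fold lower value. In the control lysate libraries, which were not part of the test, HSPA8 was at 1030 ± 323 FPKM (SD, n = 5). HSPA1B, an inducible HSP70 gene with a near-identical copy (HSPA1A) between which reads may be split, was at 94.4, 80.3, 118, 84.7 and 127 FPKM against 438, 556, 554, 522 and 588 FPKM (−2.41 ± 0.13, adjusted p = 3.85e-08). DNAJB1, the J-protein that works with these HSP70s on aggregates, was at 28.3, 25.2, 36.3, 30.5 and 34.5 FPKM against 85.4, 86.4, 80.9, 81.8 and 81.5 FPKM (−1.42 ± 0.09, adjusted p = 2.23e-07). DNAJA1 was at 45.4, 37.5, 63.4, 45.3 and 62.7 FPKM against 115, 124, 131, 114 and 131 FPKM (−1.29 ± 0.13, adjusted p = 1.03e-05).

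Of 18 tested heat shock genes 14 were lower and 1 higher, beside 41.9% and 26.1% of all genes, with a list median of −0.44. The lower ones included the genes of the mitochondrial chaperonin and its cofactor, which are not cytosolic. HSPH1 (−1.17), HSP90AA1 (−0.61) and HSP90AB1 (−0.57) were lower. HSF1, the factor that drives the group, was the member that was higher, at 89.7, 99.9, 62.2, 86.1 and 73.4 FPKM against 52.2, 53, 47.4, 53.2 and 55.3 FPKM (0.63 ± 0.11, adjusted p = 0.000493). HSPB1 (0.09), AHSA1 (0.09) and CHORDC1 (−0.07) did not pass. The control lysate mean of DNAJB1 was 80.2 ± 3.83 FPKM, beside a PS19 mean of 83.2 ± 2.49 FPKM (SD, n = 5 each).

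Of 10 tested mRNAs known as substrates of IRE1-dependent decay, 6 were lower and none higher, beside 41.9% and 26.1% of all genes. The list median of −0.29 was 0.18 below that of all genes, and their mean was nearly the same in each thapsigargin library, −0.44 to −0.38. CD59, a surface inhibitor of complement, was at 3.23, 3.13, 3.85, 3.09 and 3.87 FPKM against 10.5, 9.64, 10.3, 11 and 10.3 FPKM (−1.47 ± 0.08, adjusted p = 6.46e-08). GALNT10 (−0.95), SCARA3 (−0.72) and PMP22 (−0.48) were lower, and BLOC1S1, the widely used marker of this decay, did not pass (−0.06, adjusted p = 0.761), though with the length and GC correction it was lower (−0.44, adjusted p = 0.000133). Among collagens, laminins and integrins 19 of 25 were lower (76%) and 1 higher, beside 41.9% and 26.1% of all genes (median −0.48). Those with the smallest p were COL4A1 (−1.16), ITGB5 (−0.83), COL4A2 (−0.60) and ITGA6 (−1.45), all parts of basement membranes or of the receptors for matrix. With the length and GC correction 15 were lower and 5 higher, beside 35.9% and 33.1% of all genes. TIMP2, an inhibitor of matrix proteases, was at 3.35, 3.10, 4.02, 3.21 and 3.71 FPKM against 9.12, 8.88, 9.31, 9.45 and 9.79 FPKM (−1.31 ± 0.08, adjusted p = 1.53e-07). IGFBP5, a secreted binder of insulin-like growth factors (−1.21), RTN4RL1, a Nogo receptor homolog (−1.38), and DGAT2, which makes triglycerides at the ER (−1.72), were among the 10 lower genes of smallest p. RTN4RL1 and DGAT2 had thapsigargin means of 0.45 and 0.29 FPKM, under the pseudocount, so both differences are low estimates.

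Of 17 tau and microtubule genes 13 were lower (76.5%) and 2 higher, beside 41.9% and 26.1% of all genes, with a median of −0.47. MAPT, which may also collect reads of the tau construct, was at 28.8, 16.2, 43.3, 21.8 and 50.8 FPKM against 60.4, 58.4, 82.1, 73.3 and 77.4 FPKM (−1.22 ± 0.26, adjusted p = 0.00148). Every thapsigargin library was below every PS19 library, and libraries 3 and 5 were nearest. MAP1A, another microtubule-binding protein, was at 2.17, 1.98, 2.23, 2.18 and 2.35 FPKM against 5.38, 5.07, 5.67, 6.35 and 5.6 FPKM (−1.19 ± 0.08, adjusted p = 3.21e-07). TUBB (−0.61), TUBA1C (−0.70) and TUBB2A (−0.49) were lower, and MAP1B (0.84, adjusted p = 0.000345) was higher. ACTG1, cytoplasmic actin, was at 726, 601, 709, 659 and 750 FPKM against 1503, 1445, 1474, 1518 and 1455 FPKM (−1.11 ± 0.07, adjusted p = 2.55e-07). KANK2, which links adhesions to the actin cytoskeleton, was lower by a log2 difference of −1.19.

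Of the genes of G2 and mitosis, 23 of 27 were lower (85.2%) and 2 higher, beside 41.9% and 26.1% of all genes (median −0.45). With the length and GC correction 21 were lower and none higher, beside 35.9% and 33.1% of all genes. MKI67, the proliferation marker, was at 34.8, 41.9, 38.2, 40.2 and 34.9 FPKM against 61.4, 60.5, 78.9, 70.8 and 65.1 FPKM (−0.81 ± 0.09, adjusted p = 1.58e-05). AURKA (−0.70), PLK1 (−0.78) and BUB1B (−0.93), kinases and checkpoint proteins of mitosis, were lower, and AURKB (0.34) and UBE2C (0.27) were higher, neither of them with that correction (limma adjusted p = 0.145 and 0.521). In the S phase list 14 of 30 were lower (46.7%), near the 41.9% of all genes, and 7 were higher. Replication-dependent histones had 8 of 14 higher (57.1%) and none lower, beside 26.1% and 41.9% of all genes (median 0.38), with 4 higher and 2 lower under the length and GC correction, beside 33.1% and 35.9%. Their mRNAs end without a poly(A) tail, are short, and have near-identical copies, so their values are uncertain in a poly(A)-type library.

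Of 22 cholesterol genes 13 were lower (59.1%) and 5 higher (22.7%), beside 41.9% and 26.1% of all genes (median −0.27). INSIG1, which holds back activation of cholesterol genes in the ER, was lower by −1.21 and FDFT1, the first enzyme committed to sterols, by −0.44, as log2 differences. Mean INSIG1 was 17.5 FPKM in the thapsigargin, 39.8 in the PS19 and 31.7 in the control lysate libraries, which were not part of the test. For FDFT1 these means were 69.9, 95.0 and 86.5 FPKM. Summed FPKM of the list was 707 to 810, 903 to 919 and 786 to 831 in the same order. Hypoxia and glycolysis genes were lower in 17 of 25 (68%) and higher in 2, beside the same shares of all genes (median −0.26). With median-ratio scaling 12 were lower and 4 higher, beside 33.7% each of all genes. VEGFA, an angiogenic factor also induced by ATF4, was one of the 2, at 50.1, 47.9, 48.4, 51.8 and 47.3 FPKM against 20.7, 23.1, 19.6, 21.7 and 20.1 FPKM (1.21 ± 0.07, adjusted p = 4.5e-08). EGLN3 (−0.86), PFKP (−0.45) and PGAM1 (−1.03) were lower.

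Antioxidant genes of NRF2 had 9 of 17 lower (52.9%, beside 41.9% of all genes) and 2 higher (median −0.28), and with median-ratio scaling 6 were lower, beside 33.7% of all genes. The cystine transporter SLC7A11, which ATF4 also drives, was higher (1.29), and SRXN1 (−1.24), GSR (−0.78) and TXNRD1 (−0.66), enzymes that reduce oxidized thiols, were lower. Autophagy and lysosome genes were lower in 19 of 29 (65.5%) and higher in 4 (13.8%), beside 41.9% and 26.1% of all genes (median −0.26). WIPI1, a phosphoinositide-binding protein of early autophagosomes, was at 7.22, 6.26, 8.61, 8.50 and 8.47 FPKM against 1.78, 2.29, 2.37, 1.90 and 2.15 FPKM (1.67 ± 0.11, adjusted p = 1.76e-07). SQSTM1 (p62), the receptor that takes ubiquitinated cargo to autophagosomes, was at 33.7, 31.4, 39.6, 33.4 and 42.1 FPKM against 60.8, 60.9, 66.2, 69.0 and 66.9 FPKM (−0.84 ± 0.09, adjusted p = 1.17e-05). LAMP1 (−1.02) of the lysosomal membrane was lower. With the length and GC correction 14 autophagy and lysosome genes were lower and 5 higher, beside 35.9% and 33.1% of all genes.

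Of 18 immediate early genes 10 were higher (55.6%) and 2 lower, beside 26.1% and 41.9% of all genes (median 0.28). JUND (1.21) and JUN (1.03) were higher, and EGR1, a growth-factor-responsive gene, was lower, at 0.46, 0.44, 0.72, 0.69 and 0.69 FPKM against 2.28, 2.68, 2.68, 2.12 and 1.92 FPKM (−1.37 ± 0.11, adjusted p = 2.01e-06). The p53 list had 5 of 16 higher (31.2%, beside 26.1% of all genes) and 3 lower (18.8%, beside 41.9%), or 3 and 6 with TPM scaling, where 18.7% and 51.7% of all genes were. GADD45A (1.87) and SESN2 (1.59), which ATF4 also induces, were higher, BTG2 (−0.92) was lower, and CDKN1A (0.00, adjusted p = 0.991) and MDM2 (0.01, adjusted p = 0.945), the standard p53 targets, did not pass. Of 15 BCL2 family and death receptor genes 4 were higher and 4 lower, 26.7% each, beside 26.1% and 41.9% of all genes, or 3 and 8 with TPM scaling, beside 18.7% and 51.7%. BBC3 (PUMA, 0.47) and HRK (0.45) were higher, and BCL2L11 (BIM, −0.70) and BMF (−0.41) lower. Of 7 tested NF-κB genes 2 were higher (28.6%) and 3 lower (42.9%), near the 26.1% and 41.9% of all genes. RELB (1.04) and NFKB2 (0.87), which are also in the study's PERK list, were higher. NFKB1 (−0.69), TNFAIP3 (−0.43) and NFKBIE (−0.20) were lower. TNFAIP3 did not pass with the length and GC correction (−0.15, limma adjusted p = 0.207), nor NFKBIE with median-ratio scaling (−0.10, adjusted p = 0.254) or quantile normalization (0.03, adjusted p = 0.726). Interferon-stimulated genes had 4 of 12 higher (33.3%) and 3 lower (25%), beside 26.1% and 41.9% of all genes, or 2 and 4 with TPM scaling, beside 18.7% and 51.7%. ISG15 (0.93) and IRF9 (0.43) were among those higher and B2M (−0.66) among those lower.

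Cytosolic ribosomal proteins, whose transcripts are short and have many near-identical pseudogenes, had 47 of 76 higher (61.8%) and 8 lower, beside 26.1% and 41.9% of all genes (median 0.26). After the length and GC correction they had 25 higher and 16 lower, beside 33.1% and 35.9%, with a median of 0.03. Their list mean ran from 0.01 in library 3 to 0.40 in library 2. The nuclear-encoded respiratory chain had 15 of 44 higher (34.1%) and 16 lower (36.4%), and the proteasome 7 of 31 higher (22.6%) and 11 lower (35.5%), beside 26.1% and 41.9% of all genes, with medians of 0.05 and −0.04. These medians were 0.16 and 0.07 above that of all genes.

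**Figure D5:**
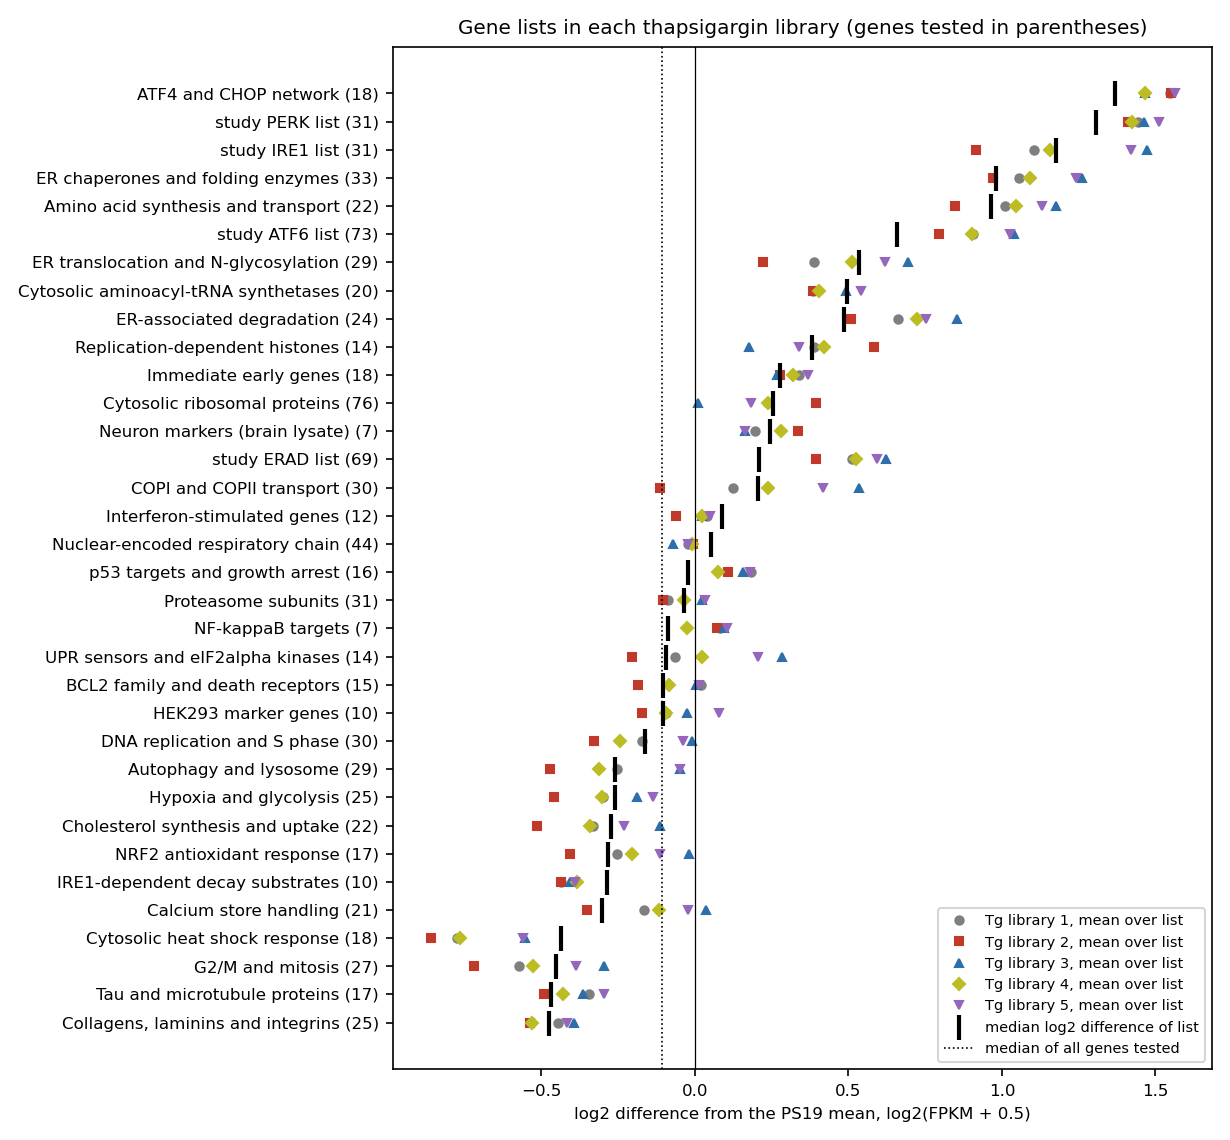
Mean log2 difference from the PS19 mean over the tested genes of each list, 1 marker per thapsigargin library, with the list median (bar) and the median of all genes tested, −0.11 (dotted line). ER stress lists lie to the right with library means close together for the PERK list (1.41 to 1.51), and the heat shock, G2/M, microtubule and matrix lists lie to the left in every library.

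Lists differed in how far the thapsigargin libraries stood apart from each other. Library means spanned 0.10 log2 units for the ATF4 and CHOP network and for the PERK list, which share genes. They spanned 0.05 for the IRE1-dependent decay substrates and 0.16 for the aminoacyl-tRNA synthetases. Narrow spans were not particular to these lists, with 0.065 for the respiratory chain, 0.10 for immediate early genes, 0.11 for the p53 list and 0.14 for the proteasome. They spanned 0.29 for ER chaperones, 0.35 for ERAD, 0.47 for translocation and N-glycosylation, 0.56 for the study's IRE1 list and 0.65 for COPI and COPII genes. In these 5 lists library 3 was the highest and library 2 the lowest. The spans of the G2/M list (0.425), the autophagy list (0.425) and the cholesterol list (0.40) had library 2 lowest and library 3 highest as well. These are descriptions of 5 libraries, and the part that length and GC content played in them was not tested.

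Some genes with the largest lower differences have near-identical copies, between which reads may be split, and are uncertain. SULT1A3 was listed at 0 in thapsigargin libraries 1, 2 and 3 and at 10.4 and 4.90 FPKM in libraries 4 and 5, against 10.5, 10.5, 27.2, 28.6 and 18.2 FPKM in the PS19 libraries. In the control lysate libraries, which were not part of the test, SULT1A3 was at 10.4, 2.8, 19.6, 0 and 4.71 FPKM. Its copy SULT1A4 went the opposite way, at 48.1, 53.2, 28.5, 24.8 and 29.9 FPKM against 17.8, 19.6, 0.03, 0.04 and 11.9 FPKM. NOMO3 was at 2.99, 2.04, 7.79, 1.70 and 8.84 FPKM against 11.6, 11.6, 22.7, 18.5 and 17.8 FPKM, and its copy NOMO1 differed by −0.46. HNRNPH2 was at 3.77, 1.73, 10.1, 2.55 and 9.42 FPKM against 20.7, 15.4, 22.4, 14.8 and 23.4 FPKM, beside −0.65 for its paralog HNRNPH1. MSTO1 and PLPP5, among the 10 higher genes of smallest p, lie outside the lists. MSTO1, a mitochondrial protein, was at 186, 175, 157, 174 and 164 FPKM against 41.2, 43.2, 39.9, 44.5 and 41.0 FPKM (2.01 ± 0.07, adjusted p = 5.92e-10). PLPP5, a lipid phosphatase, was at 43.6, 41.7, 45.9, 51.9 and 41.6 FPKM against 7.42, 8.02, 6.07, 6.57 and 7.21 FPKM (2.59 ± 0.09, adjusted p = 9.1e-10).

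The cell type labels were checked against marker genes. Of 11 HEK293 markers 10 were tested, and VIM (−0.09), PAX2 (−0.00), INA (−0.12) and EYA1 (−0.13) did not pass. KRT18 (1.18), NEFM (0.77) and KRT8 (0.61) were higher, and CDH2 (−0.96) and NEFL (−0.45) were among 3 that were lower. Of 10 markers of other cell types 8 were in the files, and only COL1A1 reached a mean of 1 FPKM. Neuron markers reached it in 7 of 16, summed to 111 to 152 FPKM in the thapsigargin and 92.4 to 113 FPKM in the PS19 libraries, and were led by NRGN. CAMK2A was at 0 in all 10 libraries, and SNAP25, GFAP and MBP were at most 0.04, 0.35 and 1.06 FPKM. Glial markers reached a mean of 1 FPKM in 3 of 20 genes, SLC1A3, GJA1 and CNP.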

How the data were processed

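RNA of Biosensor cells was sequenced as strand-specific mRNA libraries. The deposited values are FPKM per gene and library, which the authors made by filtering reads with SOAPnuke, aligning the rest to GRCh38.p12 by HISAT2 2.0.4 and estimating expression with RSEM 1.2.12 (submitters' processing notes and the study's methods). In 1 control column, listed as other, the deposited FPKM values share the column with descriptive text of lines that hold no gene, which was not used. Of 2945 low genes, 8 (0.272%) had values in whole-read steps (at least 90% of values within 0.15 reads), so counts could not be recovered. The study states only a nominal depth, and the files do not give the depth that each library reached.

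The 3 tables were joined by gene ID, and 26 symbols turned into dates were restored. Values were taken as log2(FPKM + 0.5), and genes whose 10-library mean fell short of 1 FPKM were left out. The groups, as labelled, were compared with limma 3.58.1 (R 4.3.3) with a mean-variance trend, and p-values were adjusted by Benjamini-Hochberg over all genes tested at a threshold of 0.1. The code was tested on simulated data. Summed FPKM was compared by an exact permutation test. Alternatives covered pseudocounts, filters, scalings, variance models, the replicate number as a block and leaving out each library. Transcript lengths and GC content came from GENCODE by symbol (98.6% of genes), and promoters from RefSeq.

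The comparison, gene lists and motifs were chosen with earlier results of these data known. Named genes were 8 fixed ones (DDIT3, ATF4, XBP1, EIF2AK3, ERN1, ATF6, ATP2A2, HSPA5), in each direction the 10 of smallest p and the 5 of largest difference among called genes whose groups did not overlap, symbols beginning with LOC left out, and up to 4 members of smallest p of each list. Other genes named were chosen after their values were seen. Some genes that this rule names are not reported here.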

Additional observations from a re-analysis of the deposited data

Results flagged for a closer look

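Of 382 groups of 5 libraries examined for the genes named, 7 held a library whose gap to the nearest other exceeded 0.71 of the group's range (Dixon's criterion), and chance gives about 1 in 20. In the thapsigargin group, library 4 was at 1.86 FPKM for BMF against 1.99 to 2.01 in the others. Library 1 was at 3.56 FPKM for KANK2 against 3.05 to 3.19. Library 5 was at 141.5 FPKM for DDIT4 against 94.25 to 106.9. In the PS19 group, library 4 was at 179.5 FPKM for CANX against 168.8 to 171.1, and library 5 at 10.91 FPKM for SDF2 against 8.82 to 9.27. PS19 library 3 was at 656.6 FPKM for HSP90AB1 against 696.2 to 703.0 in the others, and at 63.29 FPKM for SDF4 against 58.52 to 59.45.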

How the results depend on the processing

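Leaving out 1 library at a time gave 2804 to 3348 genes higher and 4562 to 5394 lower, and a difference in summed FPKM of 44740 to 66290. With a 2-fold minimum 215 genes were higher and 273 lower, fewer by construction. The number of genes above 0 FPKM per library differed by 11.8 (exact permutation test, p = 0.77), and by −12.1 to 23.9 with 1 library left out, below 0 without thapsigargin library 1 (−12.1) and without PS19 library 4 (−4.35). The cause was not tested. Other alternatives kept both counts of genes within 1.5 times. With the replicate block 2988 genes were higher and 4836 lower, of which 2945 and 4771 were also called without it. Libraries of the same number deviated with correlations of −0.02, 0.10, 0.23, −0.07 and 0.00, and libraries of different numbers with −0.378 to 0.349. These values show no pairing by number but cannot decide whether libraries of the same number were handled together. Array weights gave 3432 and 5343, and no filter 3462 and 5531. Without thapsigargin libraries 2 and 3, an alternative added after seeing the data, 2960 of the higher and 4785 of the lower genes were called the same way. The length and GC correction, added likewise, turned 23 genes from higher to lower and 66 from lower to higher. Of 142 genes named by the rule, 137 were called, and none of these 137 reversed under 25 other settings. EIF2AK4, SESN1, TNFAIP3 and SYT1 lost their call with the length and GC correction, and RPS6 and SYT1 with quantile normalization. Of genes named after their values were seen, RCN2, AURKB, UBE2C, SPCS1 and ZNF17 lost their call with the length and GC correction, HMOX1, QARS, SPCS1 and NFKBIE with median-ratio scaling, CANX and UBE2C with TPM, and CANX, SDF2, UBE2C, ZNF17 and NFKBIE with quantile normalization. Of named genes that did not pass, ALDH18A1, ATP2A2, CALU, COL1A1, EIF2AK3, ERO1A, FAF2, HSPA13, IARS, KLHL24, LARS, MDM2, SLC1A3, SLC38A1, TNFRSF10B and VCP were higher with the length and GC correction, and ATF5, BLOC1S1, FKBP11, HSPB1 and VIM lower. The files do not give the depth of each library, so no counting interval could be given.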
